A study of Mus musculus with 15 samples.

Results

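The comparison described here is the effect of myofibroblast ablation that early and late treatment share in mouse pancreatic tumours. It uses 12 of the 15 arrays of the series, taken as 1 deposited table: 6 arrays from ganciclovir-treated tumours, 3 treated early and 3 treated late, and 6 control arrays, 3 for each stage. All tumours were labelled pancreatic ductal adenocarcinoma (PDAC) from pancreas of animals positive for the asma tk transgene, of a genetic background labelled mixed C57BL/6 and Balb/c, so the controls carry the transgene as well. Controls received no ganciclovir, so an effect of the drug itself cannot be told apart from an effect of ablation. The early ablation group was injected at the stage of intraepithelial neoplasia of the pancreas (PanIN), a lesion that precedes carcinoma, and the late ablation group at the PDAC stage. The other 3 arrays, late ablation with an antibody against CTLA4, were not part of the comparison. Every difference below is ablation minus control with stage as a block, in log2 units of normalized signal, unless a stage is named.

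Alpha smooth muscle actin, the product of Acta2, marks the myofibroblasts that lay down collagen in the dense stroma of pancreatic cancer. A viral thymidine kinase under the promoter of that gene turns ganciclovir into a toxic nucleotide, which kills cells that express the kinase while they copy their DNA. The promoter is also used by vascular smooth muscle and pericytes, and cells that do not divide are spared. In RNA from whole tumours, fewer cells of a type and less RNA per cell cannot be told apart. The labels do not state that each array came from a separate animal, so every p-value measures the spread between these arrays only.

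The share of detected probes overlapped between the arms. Detected probes, at a detection p-value under 0.05, made up 38.5% to 43.2% of 45281 on control arrays and 39.5% to 43.5% on ablation arrays. Keratin 19 (Krt19), which marks the ductal epithelium of these tumours, lay between 12.91 and 13.99 on all 12 arrays, near the top of the scale. Late control array 1 and late ablation array 1 resembled each other more closely (rank correlation 0.974) than any other pair of the 12. Those arrays stood apart on the first principal component (28.8% of the variance), and early ablation array 1 on the second (17.1%). The Y-linked gene Eif2s3y was detected on 3 of 6 ablation arrays and 4 of 6 control arrays, and its part in the results was not tested.

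No gene passed the threshold for a shared effect of ablation. Of 14620 detected features (11637 genes with a symbol and 2983 probes without one), limma called 0 (0%) at an adjusted p under 0.05, and the smallest adjusted p was 0.859. At unadjusted p under 0.05 there were 821 features (5.62%), of which 399 were higher (2.73%) and 422 lower (2.89%). The median difference was -0.01, the median absolute difference 0.15, and 139 features differed by more than 1. Quantile normalization gives every array the same distribution, so a median near 0 and an even split are largely set by the method. With median scaling the median was 0.14, and 93.6% of the features at unadjusted p under 0.05 by limma were higher. The median 95% interval, not adjusted for the number of features, reached 0.41 to either side of the estimate. Smaller shared differences could thus not be told from 0 in a typical feature. Larger ones did not pass after adjustment either, including the 139 above 1.

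The measured differences at the early and the late stage were nearly uncorrelated across features. Across the 14620 features, 3533 were higher in both stages, 4183 lower in both and 6904 opposite, so 52.8% pointed the same way. Pearson's r between the early and late differences was 0.0617 and Spearman's rank correlation 0.068, given as a description across genes, which are not independent replicates. In 58 features (0.397%) every ablation array lay on the same side of every control array of its own stage in both stages, 25 of them higher (0.171%) and 33 lower (0.226%). Relabelling the arrays within stage would separate a share of 0.005 of features this way on average, so the 58 are no more than relabelling gives. In 16 (0.109%) the 6 ablation arrays did not overlap the 6 control arrays at all, 6 higher (0.041%) and 10 lower (0.0684%). The interaction of stage and ablation was called in 0 features by limma (smallest adjusted p 0.607, with 679 at unadjusted p under 0.05). Each stage difference compares 3 arrays with 3, and noise lowers such a correlation. Neither the low correlation nor the 0 calls therefore shows whether the stages differ.

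**Figure D1:**
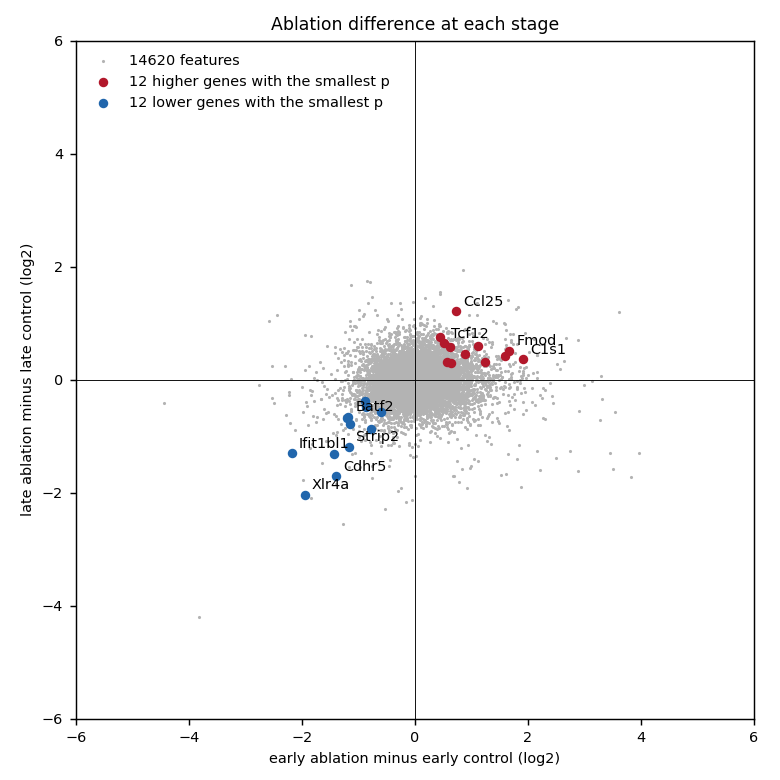
Difference between ablation and control at the early stage (horizontal axis) and at the late stage (vertical axis), both in log2 units, for 14620 features (grey points). Red and blue points are the 12 higher and 12 lower genes with the smallest unadjusted p for the shared effect. The cloud has no visible slope (Pearson's r 0.0617), and the coloured genes lie in the corners where both stages have the same sign, as their choice by small p makes likely.

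Acta2, whose promoter drives the kinase, showed no difference that passed. It read 12.43, 11.46 and 11.43 on early control arrays and 10.97, 12.998 and 13.57 on early ablation arrays. At the late stage it read 12.80, 10.33 and 12.31 on control arrays and 12.54, 12.21 and 10.55 on ablation arrays. The groups overlapped at both stages, and the early ablation arrays held both the highest reading of all 12 and the lowest early one. The shared difference was 0.35 (SE 0.537, 95% interval -0.82 to 1.51), with an exact permutation p of 0.59 over 400 relabellings within stage, of which the smallest possible p is 0.005. Limma gave an adjusted p of 0.933. The 4 Acta2 probes detected on all 12 arrays differed by 0.35 to 0.88, and leaving out single arrays moved the value from 0.06 to 0.66. Of the smooth muscle and pericyte genes, 12 of 15 measured members were higher, with a median of 0.29, which was 0.59 at the early stage and -0.03 at the late stage. That median was 0.14 without late control array 2 and 0.05 without early control arrays 2 and 3. For this group and all others, the median over all tested features was -0.01, a value that quantile normalization holds near 0.

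The genes with the smallest p for the shared effect are described next, beginning with those higher after ablation. The 12 higher and the 12 lower genes with the smallest p were taken, each with a limma adjusted p of 0.859, so none of these differences passed. Fibromodulin (Fmod), a small proteoglycan that binds collagen fibrils, read 4.54, 5.31 and 4.71 on early control and 6.71, 6.84 and 6.02 on early ablation arrays. It read 5.72, 4.92 and 5.01 on late control and 5.91, 5.78 and 5.49 on late ablation arrays. The early groups lay well apart, while 1 late control array overlapped the late ablation arrays. The shared difference was 1.09 (SE 0.259, unadjusted p = 0.0011), made of 1.67 early and 0.51 late, and only 2 of 6 control arrays detected the gene. The early arrays also differed in the share of probes detected, 38.5% to 39.4% on control and 41.3% to 43.5% on ablation arrays, and the part of this in genes near the detection limit was not tested.

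Tgfb2, which encodes a TGF-beta ligand, was likewise detected on 6 of 6 ablation and 2 of 6 control arrays. Its readings were 4.64, 4.79 and 4.75 on early control, 6.05, 6.12 and 5.76 on early ablation, 4.997, 5.63 and 5.90 on late control and 5.91, 5.57 and 5.99 on late ablation arrays. The shared difference of 0.78 (SE 0.207) came from 1.25 early and 0.31 late, and the late groups overlapped. Fgfr1, a receptor of fibroblast growth factors, was detected on 5 of 6 ablation and 0 of 6 control arrays. Its mean signal was at least 1.18-fold higher, with a difference of 0.46 (SE 0.121) that did not pass. The bound takes account of signal below detection but leaves out the spread among arrays. Late ablation array 2 read 4.80, against 4.82 on late control array 3. Fgfr1 passed the detection filter through ablation arrays alone, so its detection counts are no separate evidence of a difference. C1s1, a protease that starts the classical complement cascade, differed by 1.14 (SE 0.3), with 1.92 early and 0.36 late. A second C1s1 probe, detected on 5 arrays, differed by 0.62.

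The higher gene with the smallest p was Tcf12, a transcription factor of the E-protein class. It read 6.87, 6.76 and 6.97 on early control and 7.48, 7.25 and 7.43 on early ablation arrays. On late arrays it read 7.07, 6.77 and 6.70 in controls and 7.49, 7.34 and 7.65 after ablation. All 6 ablation arrays lay above all 6 control arrays, with means of 7.44 ± 0.139 and 6.86 ± 0.143 (SD over the 6 arrays of each arm). The difference was 0.58 (SE 0.12, 95% interval 0.32 to 0.84, unadjusted p = 0.000342), a factor of 1.5. A second Tcf12 probe, detected on 10 arrays, differed by -0.02, so the probes disagree.

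Rhobtb1 had probes that went the same way. Its brighter probe read 8.71, 8.52 and 8.48 on early control, 9.94, 9.83 and 9.31 on early ablation, 9.29, 9.11 and 9.74 on late control and 9.87, 9.69 and 10.39 on late ablation arrays. One late control array overlapped the late ablation arrays. The probes differed by 0.86 (SE 0.185, unadjusted p = 0.000472) and 0.89. Marchf7, an E3 ubiquitin ligase, differed by 0.60 (SE 0.139), with 0.63 early and 0.57 late, and did not overlap within either stage. Its second probe, detected on 7 arrays, differed by 0.38. Rcor3, of the REST corepressor family, differed by 0.67 (SE 0.167) and Paip1, a partner of the poly(A)-binding protein in translation, by 0.60 (SE 0.148). Fam76a did not overlap between the 6 and 6 arrays at 0.44 (SE 0.116), yet its other detected probe differed by -0.26.

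The chemokine Ccl25, a ligand of the receptor CCR9, differed by 0.73 early and 1.21 late. It read 5.26, 5.95 and 4.94 on early control, 6.02, 5.99 and 6.32 on early ablation, 4.37, 4.44 and 5.50 on late control and 6.16, 5.43 and 6.35 on late ablation arrays. The early groups lay just apart and the late groups overlapped by 1 array. The shared difference was 0.97 (SE 0.251), but 2 further probes differed by 0.26 and -0.27. Cep112, a centrosomal protein gene, completed the 12 at 1.01 (SE 0.266), with 1.60 early and 0.42 late. Cep112 was detected on 2 of 6 control arrays, and Ccl25, C1s1 and Rcor3 on 3 of 6 each, against 6 of 6 ablation arrays.

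**Figure D2:**
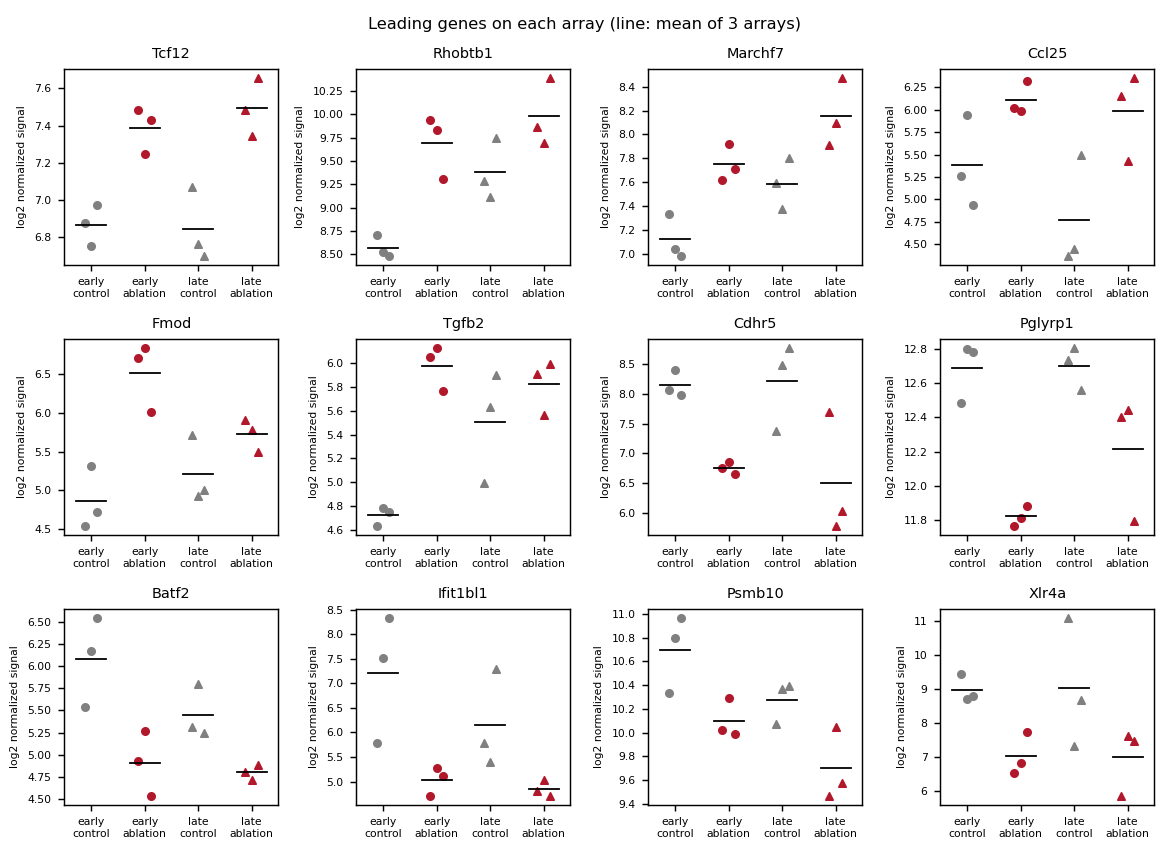
Log2 normalized signal of 6 leading higher genes and 6 leading lower genes on each of the 12 arrays, by group (circles early, triangles late; grey control, red ablation; lines are means of 3 arrays). In Tcf12 the 6 ablation arrays all lie above the 6 control arrays, in Pglyrp1 and Ifit1bl1 they all lie below, and in Cdhr5 and Xlr4a single late arrays overlap the other arm.

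The lower genes are described in an order chosen after their values were seen. Ifit1bl1, of the interferon-induced IFIT family, read 5.79, 7.51 and 8.33 on early control and 4.72, 5.28 and 5.11 on early ablation arrays. It read 5.79, 5.41 and 7.29 on late control and 4.82, 5.04 and 4.72 on late ablation arrays. All 6 ablation arrays lay below all 6 control arrays, and only 3 of 6 ablation arrays detected the gene. The difference was -1.74 (SE 0.414, 95% interval -2.64 to -0.84, unadjusted p = 0.0011), a factor of 3.34. It was -1.12 without early control arrays 2 and 3, which were the highest of the early controls for several interferon genes.

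Batf2, a transcription factor gene that interferon induces, read 5.53, 6.18 and 6.54 on early control, 4.93, 5.26 and 4.54 on early ablation, 5.31, 5.80 and 5.25 on late control and 4.81, 4.71 and 4.88 on late ablation arrays. The groups did not overlap within either stage, and 2 of 6 ablation against 6 of 6 control arrays detected it. Its difference was -0.91 (SE 0.202, unadjusted p = 0.000615), with -1.18 early and -0.65 late. Psmb10, a catalytic subunit of the immunoproteasome that cuts peptides for MHC class I, read 10.33, 10.80 and 10.96 on early control, 10.02, 10.29 and 9.99 on early ablation, 10.07, 10.37 and 10.39 on late control and 9.47, 10.05 and 9.58 on late ablation arrays. The groups lay apart within each stage by a narrow margin. It differed by -0.59 (SE 0.153), with -0.60 early and -0.58 late, and a second probe, detected on 12 arrays, differed by -0.63.

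Pglyrp1, a peptidoglycan recognition protein of antibacterial defence, was a bright gene with little spread. It read 12.48, 12.80 and 12.78 on early control, 11.77, 11.81 and 11.88 on early ablation, 12.74, 12.80 and 12.56 on late control and 12.40, 12.44 and 11.79 on late ablation arrays. All ablation arrays lay below all control arrays, with means of 12.02 ± 0.317 and 12.69 ± 0.137 (SD over the 6 arrays of each arm). The difference was -0.68 (SE 0.148, unadjusted p = 0.000556), and a dimmer probe differed by -0.21.

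The 3 promoters shown here belong to genes of the interferon response that read lower after ablation on average, 2 of which, Gbp2 and Irf1, are members of the interferon list described with the other gene groups. They were searched on both strands for the core of the interferon-stimulated response element (ISRE), GAAANNGAAA, and the core of the gamma-activated site (GAS), TTCNNNGAA, motifs bound by interferon-activated STAT and IRF factors. The windows run from 250 bases before to 50 bases after the gene start in RefSeq (build GRCm38.p6) and are printed 5′ to 3′ on the gene's strand, with motif matches in capitals. The Gbp2 window (chr3:142620413-142620712, plus strand) holds an ISRE core, on the opposite strand, that begins 59 bases before the start. The Irf1 window (chr11:53769764-53770063, plus strand) is 1 of 2 listed and holds a GAS core 90 bases before the start, while the other listed window of this gene holds 0 matches. The Ifit1bl1 window (chr19:34601919-34602218, minus strand) holds an ISRE core 104 bases before the start, again on the opposite strand, and the other listed window of this gene holds one 23 bases before. These genes are examples only: the listed window of Psmb10, also lower, holds 0 matches to either core.
Gbp2: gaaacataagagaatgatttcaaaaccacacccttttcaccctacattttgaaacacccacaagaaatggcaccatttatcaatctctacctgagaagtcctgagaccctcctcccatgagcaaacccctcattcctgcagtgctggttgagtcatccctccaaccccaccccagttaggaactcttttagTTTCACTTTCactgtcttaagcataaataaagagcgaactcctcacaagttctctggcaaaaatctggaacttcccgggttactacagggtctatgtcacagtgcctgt
Irf1: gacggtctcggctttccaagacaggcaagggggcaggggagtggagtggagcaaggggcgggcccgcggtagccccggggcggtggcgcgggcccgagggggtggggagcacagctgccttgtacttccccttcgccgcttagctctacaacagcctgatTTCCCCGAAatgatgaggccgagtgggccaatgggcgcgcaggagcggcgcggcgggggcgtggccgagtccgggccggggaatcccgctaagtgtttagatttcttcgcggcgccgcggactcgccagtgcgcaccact
Ifit1bl1: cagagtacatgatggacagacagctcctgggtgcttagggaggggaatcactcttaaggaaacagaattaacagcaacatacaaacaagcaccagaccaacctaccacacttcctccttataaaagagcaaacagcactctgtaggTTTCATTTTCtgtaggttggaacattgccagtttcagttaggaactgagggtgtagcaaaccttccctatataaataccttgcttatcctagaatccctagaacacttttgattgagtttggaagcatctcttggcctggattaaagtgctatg

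The share of promoters with these motifs was small in every set compared. Of the 49 genes with a symbol among the 58 features whose groups did not overlap within each stage, 43 had a promoter entry. The ISRE core was in 3.44% of all 32851 promoter windows, in 6.25% of the 32 windows of lower genes (2 windows, both of Ifit1bl1) and in 3.85% of the 26 windows of higher genes. Over the 11985 windows of tested genes it was in 3.09%. The GAS core was in 8.3% of all windows, 7.0% of those of tested genes, 6.25% of those of lower genes and 7.69% of those of higher genes. The CArG box, the motif of serum response factor at smooth muscle genes, was in 1.63% of all windows, 1.37% of those of tested genes, 0% of those of lower and 3.85% of those of higher genes. A match describes the letters of a window and does not show that a factor binds there.

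Cdhr5, a cadherin of the brush border, had the smallest p of all features (unadjusted p = 0.000313). It read 8.07, 8.40 and 7.97 on early control, 6.76, 6.85 and 6.66 on early ablation, 7.38, 8.49 and 8.77 on late control and 7.69, 5.78 and 6.04 on late ablation arrays. The early groups lay well apart, while late ablation array 1 read above late control array 1. The difference was -1.55 (SE 0.316, 95% interval -2.23 to -0.86), a factor of 2.93, with -1.39 early and -1.71 late. Olfm4, a secreted glycoprotein known from intestinal crypts, differed by -1.36 (SE 0.362), with -1.42 early and -1.31 late. Slc13a2, a sodium-coupled dicarboxylate transporter, differed by -0.97 (SE 0.261).

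Xlr4a, a gene on the X chromosome, had the largest difference among these 24 genes. It read 9.45, 8.70 and 8.80 on early control, 6.54, 6.82 and 7.74 on early ablation, 11.09, 7.33 and 8.67 on late control and 5.87, 7.62 and 7.48 on late ablation arrays. The early groups lay apart, and late control array 2 read below 2 of the late ablation arrays. The difference was -1.99 (SE 0.53, 95% interval -3.14 to -0.85), a factor of 3.98, with -1.95 early and -2.04 late, and it was -1.53 without late control array 1. The kinase gene Cdk5 differed by -0.82 (SE 0.214), the striatin-interacting Strip2 by -1.17 (SE 0.301) and the chromatin reader Ing2 by -0.63 (SE 0.159). The gene listed as 2010003K11Rik was detected on 0 of 6 ablation and 5 of 6 control arrays. Its mean signal was at least 1.52-fold lower, at -0.94 (SE 0.227). It passed the detection filter through control arrays alone, so these detection counts are no separate evidence of a difference.

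Further genes had groups that did not overlap within either stage, at larger p than the 24 genes above. As stated above, such features were no more frequent than relabelling within stage gives. Among the higher ones, Hs3st3b1, a heparan sulfate sulfotransferase, differed by 0.59 in both stages, and Kiss1, the precursor of kisspeptin, by 0.46 early and 0.79 late. Msantd3 differed by 0.67 (SE 0.179), Ovgp1 by 0.58 (SE 0.18) and 0610009L18Rik by 0.49 (SE 0.167). Kiss1 and 0610009L18Rik were each detected on 5 of 6 ablation and 1 of 6 control arrays. Their early groups lay apart by little near the detection limit. The lowest ablation and highest control readings were 4.66 and 4.57 for Kiss1, and 4.86 and 4.82 for 0610009L18Rik. Wipf3 was detected on 0 of 6 control and 4 of 6 ablation arrays, and its mean signal was at least 1.15-fold higher. It passed the detection filter through ablation arrays alone, and its groups lay apart by little near the detection limit. Early ablation array 2 read 4.82 against 4.71 on early control array 3, and late ablation array 3 read 4.99 against 4.93 on late control array 1. Ube2q2, a ubiquitin-conjugating enzyme, was a small but repeated difference: its 3 probes stood at 0.38, 0.36 and 0.34. Among the lower ones, Ccdc28a differed by -0.57 (SE 0.163), Git2, a protein that turns off Arf GTPases, by -0.41 (SE 0.132), the rRNA methyltransferase Nsun5 by -0.45 (SE 0.149) and Zgpat by -0.43 (SE 0.154). Aldh1b1, a mitochondrial aldehyde dehydrogenase, stood at -0.35 (SE 0.125) and Ost4, a subunit of the enzyme that attaches N-glycans, at -0.36 (SE 0.13). For Git2, Nsun5 and Zgpat, at least 1 other detected probe differed in the opposite direction. With each array scaled to its median, which put the median of all features at 0.14, Git2 stood at -0.20, Nsun5 at -0.24, Zgpat at -0.22, Ost4 at -0.19 and Ube2q2 at 0.58.

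Gene lists were next compared by their counts and medians, without a set test. In none of the 33 lists did a member pass. Of 20 measured collagen and matrix genes, 18 were higher, with a median of 0.46, made of 0.77 early and 0.18 late, and 3 had an unadjusted p under 0.05, against 2.73% of all features in that direction.

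Lox, the enzyme that cross-links collagen, led that list. It read 9.50, 9.19 and 8.93 on early control, 9.79, 11.11 and 11.70 on early ablation, 10.95, 6.99 and 10.08 on late control and 11.35, 10.43 and 10.44 on late ablation arrays. Late control array 2 read far below every other array, and late control array 1 overlapped the ablation arrays. The difference was 1.53 (SE 0.556), or 1.02 without late control array 2. The other members under p 0.05 were biglycan (Bgn), a matrix proteoglycan, at 0.60 (SE 0.257), and Col8a1, a short-chain collagen, at 0.40 (SE 0.169). Col1a1, the main fibrillar collagen, stood at 0.38 (SE 0.601), and without late control array 2 at -0.09. The list mean on late control array 2 was -1.40, the lowest of all 12 arrays, and the list median was 0.25 without that array and 0.27 without early control arrays 2 and 3.

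Hypoxia and glycolysis genes were higher in all 14 measured members, at a median of 0.43, with 0.30 early and 0.46 late. Gapdh, a glycolytic enzyme, read 12.55, 12.54 and 12.51 on early control, 13.04, 12.96 and 12.78 on early ablation, 13.35, 12.67 and 12.73 on late control and 13.12, 13.20 and 13.63 on late ablation arrays. The early groups did not overlap, and late control array 1 was the single array out of order at the late stage. The difference was 0.39 (SE 0.148), with 0.39 early and 0.40 late. Pgk1, another glycolytic enzyme, stood at 0.34 (SE 0.168), and Vegfa, which encodes a growth factor of vessels, at 0.48 (SE 0.345). Vegfa differed by 0.90 early and 0.05 late, and by 0.25 without late ablation array 3. Late ablation array 3 carried the highest list mean, 1.60 against 0.17 or less on the other ablation arrays, and without it the list median was 0.19.

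Proliferation genes lay on the lower side in 16 of 17 members, with a median of -0.30, which was -0.38 early and -0.20 late. None had an unadjusted p under 0.05. Mcm5, part of the helicase that opens DNA for replication, stood at -0.58 (SE 0.352), Birc5, a protein of dividing cells, at -0.69 (SE 0.421), and the brighter Mcm4 at -0.19 (SE 0.169). Birc5 read 8.46, 7.88 and 9.18 on early control, 6.79, 7.98 and 8.86 on early ablation, 7.48, 6.56 and 7.97 on late control and 6.51, 7.69 and 5.54 on late ablation arrays. The arms overlapped at both stages. The list median was -0.18 without early ablation array 1 and -0.47 without late ablation array 2. Scaling each array to its median, instead of quantile normalization, put the median of all features at 0.14 and that of the proliferation list at -0.10.

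**Figure D3:**
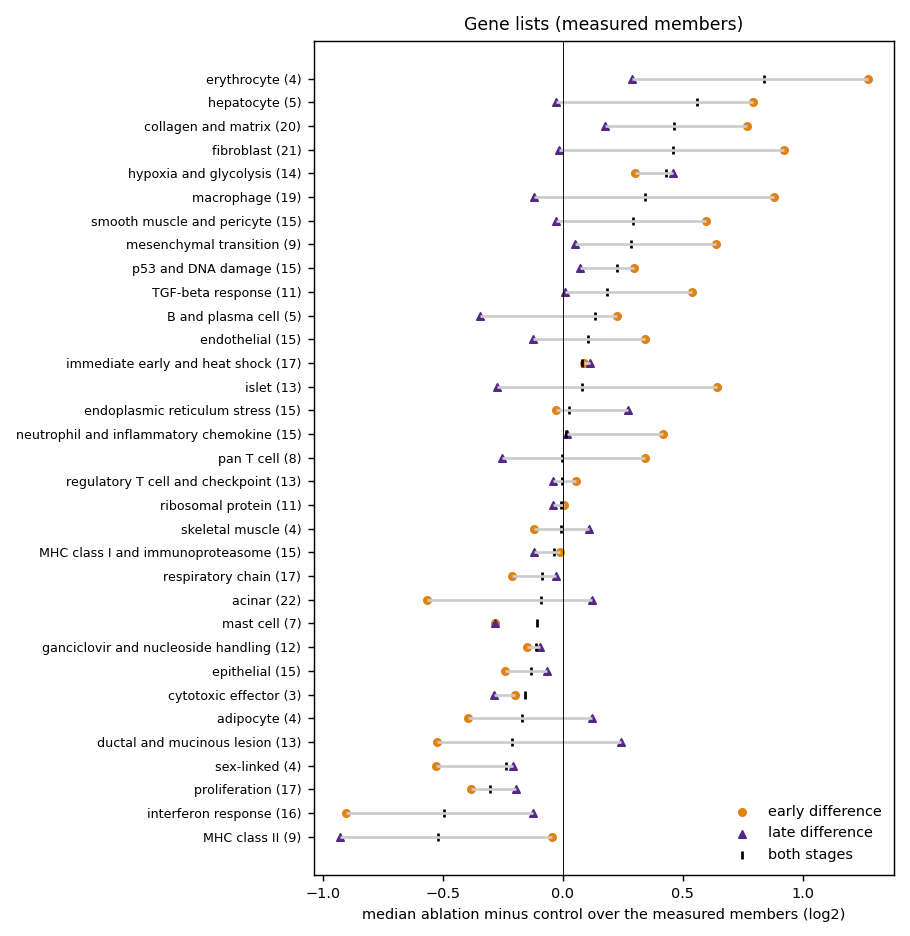
Median ablation minus control difference (log2, horizontal axis) over the measured members of each of 33 gene lists (number of members in brackets), at the early stage (circles), at the late stage (triangles) and for both stages (bars). For collagen, hypoxia, proliferation and interferon genes both stage medians lie on the same side of 0, while for fibroblast, macrophage and smooth muscle genes the late median is near or below 0.

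Interferon response genes were lower in 14 of 16 members, with a median of -0.49, made of -0.90 early and -0.13 late. Gbp2, a guanylate-binding protein of interferon defence, read 8.32, 10.78 and 10.65 on early control, 8.65, 8.93 and 7.80 on early ablation, 8.36, 8.58 and 9.07 on late control and 7.91, 7.86 and 7.41 on late ablation arrays. Early control arrays 2 and 3 read far above the rest, and early control array 1 lay among the ablated arrays. The late groups did not overlap. The difference was -1.20 (SE 0.381, unadjusted p = 0.00794), and -0.58 without early control arrays 2 and 3. Ifit3, a gene of the IFIT family, stood at -0.80 (SE 0.348) and Irf1, a transcription factor of the interferon response, at -0.43 (SE 0.194), or -0.26 and -0.24 without those arrays. The list median without them was -0.17. These 3 genes had an unadjusted p under 0.05, against 2.89% of all features in that direction.

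Genes of MHC class II, the molecules that show antigen to helper T cells, were lower in 7 of 9 members at a median of -0.52. The median was -0.04 early and -0.93 late. The list mean on early ablation array 1 was 1.89, the highest of the 12 arrays, and the shared median was -0.85 without that array and -0.34 without late ablation array 3. Ciita, the activator that turns on this family, stood at -0.73 (SE 0.264) and was detected on 1 of 6 ablation and 4 of 6 control arrays. The invariant chain gene Cd74 stood at -1.09 (SE 0.637), with -0.25 early and -1.93 late, and read 12.55 on early ablation array 1, the highest of the 12. Of the MHC class I and immunoproteasome genes, 10 of 15 were lower at a median of -0.04, and Psmb9 differed by -0.45 (SE 0.198), with 0.05 early and -0.95 late.

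**Figure D4:**
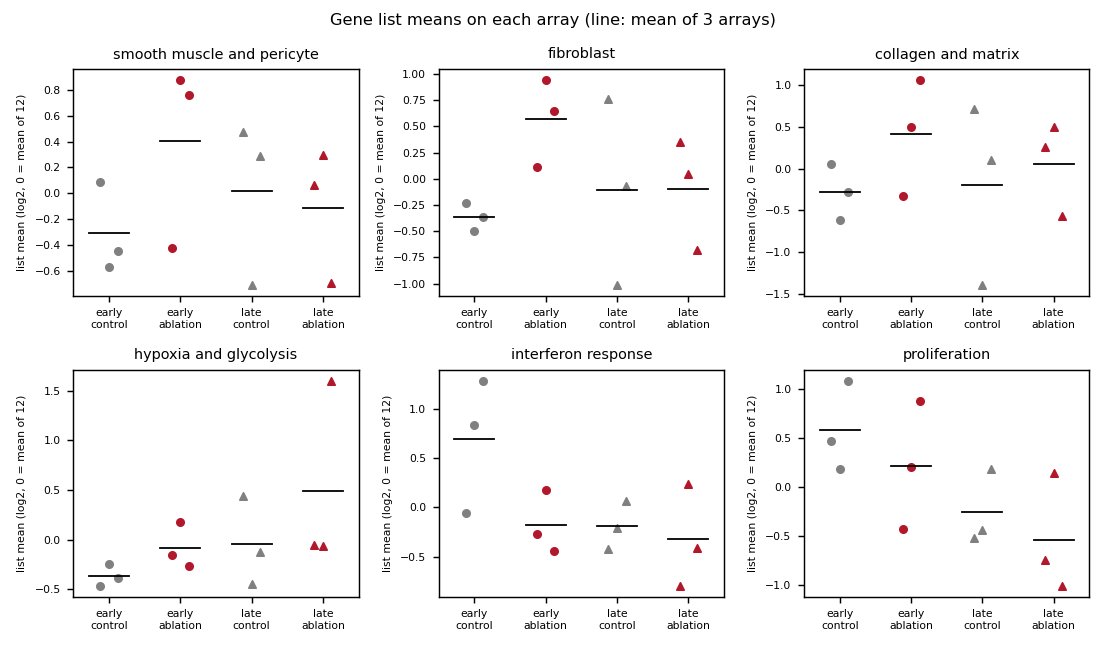
Mean of each list's measured members on each of the 12 arrays, in log2 units with 0 at the gene's mean over the 12 arrays, by group (circles early, triangles late; grey control, red ablation; lines are means of 3 arrays). Late ablation array 3 stands at 1.60 in the hypoxia list, late control array 2 at -1.40 in the collagen list, and early control arrays 2 and 3 are highest in the interferon list.

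Fibroblast genes were higher in 18 of 21 members with a median of 0.46, but the median was 0.92 early and -0.01 late. Fbln2, a matrix protein of fibroblasts, stood at 0.98 (SE 0.453) and Mfap5, of elastic microfibrils, at 1.01 (SE 0.567). TGF-beta response genes were higher in 10 of 11 members at a median of 0.18, with 0.54 early and 0.01 late. Ltbp1, which binds latent TGF-beta in the matrix, differed by 0.87 (SE 0.301). All 9 measured genes of mesenchymal transition were higher, at a median of 0.29, with 0.64 early and 0.05 late, among them vimentin (Vim) at 0.96 (SE 0.436). Macrophage genes followed the same course, with 15 of 19 higher, at 0.88 early and -0.12 late, and arginase 1 (Arg1) at 0.81 (SE 0.435). Endothelial genes stood at 0.34 early and -0.12 late, with Vwf, the von Willebrand factor, at 0.73 (SE 0.347) and Pecam1, an adhesion molecule of endothelium, at 0.10 (SE 0.31). The shared medians of 4 of these 5 lists moved by more than 1.5 times without early control arrays 2 and 3. Without those arrays the fibroblast median was 0.19, the mesenchymal transition median 0.05, the macrophage median 0.14 (0.34 with all arrays) and the endothelial median -0.04 (0.11 with all arrays), while the TGF-beta median was 0.15. Without late control array 2 the fibroblast median was 0.30, and without late ablation array 1 the mesenchymal transition median was 0.19. The early medians of hepatocyte genes (5 of 10 measured, 4 higher over both stages) and red blood cell genes (4 of 8 measured) were 0.79 and 1.27. The hepatocyte list mean lay between -0.75 and -0.06 on early control and between 0.46 and 0.54 on early ablation arrays, and its part in the results was not tested.

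Epithelial genes were lower in 11 of 15 members at a median of -0.13, which was -0.0030 with median scaling, -0.26 without late control array 1 and -0.07 without late ablation array 1. Muc1, a membrane mucin, read between 13.27 and 13.77 on the 6 ablation arrays and between 13.45 and 14.33 on the 6 control arrays, a difference of -0.38 (SE 0.155). Epcam stood at -0.55 (SE 0.252), detected on 2 of 6 ablation and 4 of 6 control arrays. Cdh1, E-cadherin, stood at -0.09 (SE 0.239) and the keratin gene Krt8, the brightest measured member, at -0.08 (SE 0.134). Ductal and mucinous lesion genes were at -0.52 early and 0.24 late, and their shared median of -0.21 was -0.06 without early ablation array 1, with Onecut2, a duct transcription factor, at -0.36 (SE 0.159). Among T cell genes, Cd8b1, a chain of the CD8 co-receptor, read 11.19, 11.31 and 11.35 on early control, 10.13, 10.14 and 10.59 on early ablation, 9.87, 11.34 and 10.58 on late control and 9.97, 10.91 and 9.21 on late ablation arrays. The early groups lay apart and the late groups overlapped. It differed by -0.78 (SE 0.29), and Cd247, a signalling chain of the T cell receptor, by -0.31 (SE 0.122). The median of the 8 measured pan T cell genes was 0.00, made of 0.34 early and -0.25 late. Of these 8 genes, 6 were higher early and 0 late, while Cd8b1 and Cd247 were lower at both stages. The partner gene Cd8a was detected on 0 arrays and was not tested, so whether the Cd8b1 probe follows CD8 T cells was not tested either. Foxp3, the factor of regulatory T cells, stood at -0.12 (SE 0.127) and Ctla4 at 0.13 (SE 0.287).

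Among 17 immediate early and heat shock genes, 10 were higher and 7 lower, at a median of 0.08. On the higher side 3 had an unadjusted p under 0.05, against 2.73% of all features in that direction. The small heat shock protein gene Hspb1 differed by 1.03 (SE 0.343), with 1.91 early and 0.15 late, and the phosphatase gene Dusp1 by 0.99 (SE 0.402), or 0.48 without early control arrays 2 and 3. The chaperone gene Hsph1 stood at -1.02 (SE 0.747), Hspa1a, of the HSP70 chaperones, at -0.65 (SE 0.402) and its near copy Hspa1b at -0.42 (SE 0.546). Genes of the p53 and DNA damage response were higher in 13 of 15 members at a median of 0.22, with 0.30 early and 0.07 late, and the median was 0.07 without early ablation array 1. Plk2, a p53-induced kinase, read 8.57, 8.28 and 8.08 on early control, 9.23, 8.86 and 8.88 on early ablation, 8.15, 8.72 and 8.60 on late control and 8.66, 8.89 and 8.76 on late ablation arrays. The early groups lay apart, and 1 late control array overlapped. It differed by 0.48 (SE 0.153). Of the genes that handle nucleosides such as ganciclovir, 7 of 12 were lower at a median of -0.11 (0.03 with median scaling), and Guk1, guanylate kinase, stood at -0.32 (SE 0.134).

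Leaving out single arrays changed how many features reached an unadjusted p under 0.05. The count was 1947 without late control array 1, 1411 without late ablation array 2 and 534 without late control array 2, against 821 with all 12. Limma called 0 features at an adjusted p under 0.05 in each of the 12 fits with 1 array left out. With the early arrays alone the unadjusted count was 2081 and 1 feature was called, an unnamed probe at -2.28 (adjusted p = 0.0229). With the late arrays alone the count was 191.

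**Figure D5:**
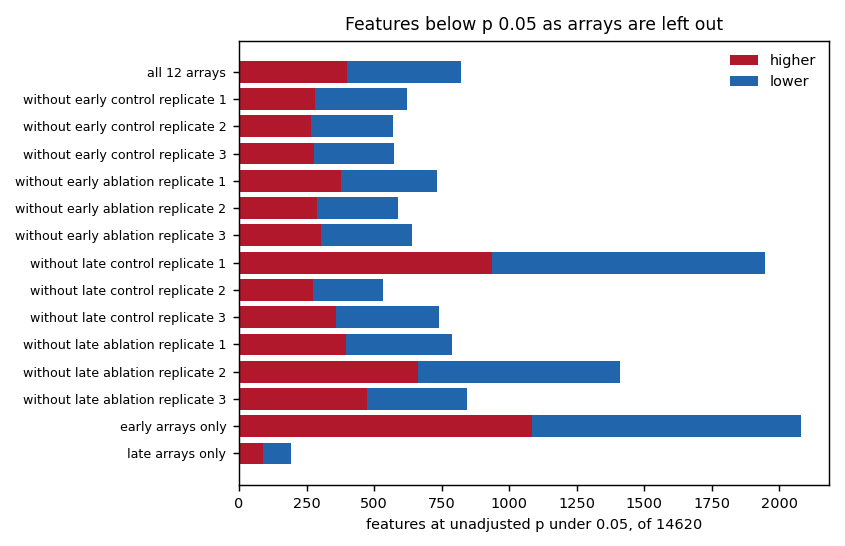
Number of features at unadjusted p under 0.05 for the shared effect (bars start at 0; red higher, blue lower) with all 12 arrays, with each array left out in turn, and with the arrays of 1 stage alone. The count is 821 with all arrays, rises to 1947 without late control array 1, and is 2081 with early and 191 with late arrays alone.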

How the data were processed

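RNA of pancreatic tumours was extracted with Trizol and labelled as biotinylated cRNA with an Ambion MessageAmp kit, per the labels' protocols, and read on Illumina MouseWG-6 v2 arrays with GenomeStudio, per the submitters' processing notes (version not given in the sources used here). The deposited table of 12 arrays holds unnormalized bead intensity per probe and, beside it, the authors' detection p-value against negative controls. The deposited value table of the series is also intensity on a linear scale, linear in the unnormalized signal of its array (largest residual 0.0862 to 0.102), with slope and offset of unknown origin. Its column medians were 24.2, 26.2 and 28.2 (early control), 18.7, 19.7 and 19.3 (early ablation), 21.9, 24.2 and 16.5 (late control) and 19.5, 22.9 and 24.0 (late ablation).

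From the deposited signals, background was corrected with normexp from the detection p-values (offset 16, limma 3.58.1, R 4.3.3), followed by quantile normalization and log2. Of the probes, 34885 carry 1 symbol, 18 several and 10378 none; the brightest probe stood for a symbol. A feature was kept when its detection p-value was under 0.05 on 3 arrays or more. Limma (lmFit, eBayes) fitted stage and ablation over the 12 arrays, two-sided, with Benjamini-Hochberg adjustment. Where no array of an arm detected a gene, its signals were set to no less than the dimmest detected signal of each array, and the fold is given as "at least". The 3 anti-CTLA4 arrays, in a second table, were used for levels alone, after all 15 arrays were normalized together. Genes were named by the 12 smallest p per direction, by up to 10 per direction without overlap within stages, and, per list, by the 2 smallest p and the brightest member, beside fixed genes, of which Cd8a, H2-Ea (detected on 2 arrays) and Mki67 (no probe) were not tested. The members, lists and alternatives were chosen with earlier results of these data known. Alternatives changed the background correction, normalization, source of values, filter, probe choice, model, replicate block and arrays used. In simulated data with independent noise for this comparison (14620 features, 50 changed at each size), 8, 35, 43 and 46 of 50 were called at log2 differences of 0.5, 1, 1.5 and 2, with 8 false calls.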

Additional observations from a re-analysis of the deposited data

Results flagged for a closer look

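In 24 of 274 arms tested (each named gene, list mean and the share of detected probes, over the 6 control or the 6 ablation arrays), 1 array lay farther from its nearest neighbour than 0.625 of the arm's range, the critical gap. Chance gives about 1 in 20.

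Late control array 1 was the highest control for Gapdh (gap 0.742), Snai1 (0.628), Trib3 (0.688) and the haemoglobin gene Hbb-b2 (0.892, at 8.45 against 4.81 or less on the other control arrays). The same array was the lowest control for Cdh1 (0.752), Ube2q2 (0.681) and the list of nucleoside handling (0.677). Early ablation array 1 was the highest ablation array for Cep112 (0.783), Ube2q2 (0.773), Ciita (0.955), Cd74 (0.629) and the MHC class II list (0.677), and the lowest for the acinar list (0.694, at -3.47 against -0.00033 or more on the other ablation arrays).

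Late ablation array 3 was the highest ablation array for the hypoxia and glycolysis list (0.763), the endoplasmic reticulum stress list (0.654) and Trib3 (0.732), a gene of that stress response, and the lowest for Cdk5 (0.642) and Nsun5 (0.676). Late ablation array 1 was the lowest for Aldh1b1 (0.659) and ribosomal protein genes (0.635). Late ablation array 2 was the highest for Acta1, skeletal muscle actin (0.66), and the skeletal muscle list (0.648). In the neutrophil and inflammatory chemokine list, early control array 1 was the highest control (0.7) and early ablation array 2 the highest ablation array (0.653).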

How the results depend on the processing

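Limma called 0 features at an adjusted p under 0.05 under every alternative except early arrays alone (1), and with single arrays left out (0 to 0). The count at unadjusted p under 0.05, 821 as reported, was 1304 with median scaling, 1476 with no detection filter, 2188 with array weights, 1386 with the replicate block (number within stage), 378 without early control arrays 2 and 3, 411 also without early ablation array 1, 1684 without late control and late ablation arrays 1, 2081 with early and 191 with late arrays alone. It ranged from 534 to 1947 without single arrays. Of these features 48.6% were higher as reported and 93.6% with median scaling, which moved the median of all features to 0.14. The count without overlap, 58 as reported, was 101, 134, 193, 284, 609, 3115 and 643 in the same order (not defined for weights and block), and 84 to 465 without single arrays, since fewer arrays overlap less. Acta2 stood at -0.0029 without early control arrays 2 and 3 and at -0.049 with late arrays alone.

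Of 106 genes, 91 kept their direction under all alternatives. Many of the 106 were chosen by small p or by groups that did not overlap the same way in both stages. That choice largely fixes their direction when arrays are left out, so the count does not measure robustness. The 106 leave out some genes named above, such as Krt8, which differed by -0.21 early and 0.05 late. With median scaling Tpm1 (0.13), Thy1 (0.11), Foxp3 (0.074) and Cdh1 (0.10) changed direction, and Thy1 with array weights (0.36). Without early control arrays 2 and 3 so did Tpm1 (0.051), Mzb1 (-0.022), Eif2s3y (0.29), Krt19 (0.080), Col1a1 (-0.0022), Pecam1 (-0.14) and Snai1 (-0.23); without early ablation array 1 as well, Tpm1 (0.12), Mzb1 (-0.27), Krt19 (0.13), Cdh1 (0.0074), Pecam1 (-0.12) and Snai1 (-0.11); without late arrays 1, Thy1 (0.0020) and Eif2s3y (0.035). With early arrays alone Thy1 (0.38) and Psmb9 (0.051) changed, and with late arrays alone Tpm1 (0.11), Ccn2 (-0.13), Vwf (-0.12), Zg16 (-0.028), Mzb1 (-0.59), Krt19 (0.25), Cdh1 (0.12), Ctla4 (-0.19), Pecam1 (-0.31) and Snai1 (-0.34). Without single arrays the values ran from -0.021 to 0.19 (Ccn2), -0.28 to 0.049 (Cdh1), -0.086 to 0.79 (Col1a1), -0.11 to 0.25 (Ctla4), -0.081 to 0.28 (Pecam1), -0.027 to 0.59 (Snai1), -0.31 to 0.20 (Thy1) and -0.13 to 0.073 (Tpm1). The cause of these changes was not tested. List medians moved by less than the spread between arrays of a group in 1031 of 1056 cases. That spread was wide in some lists, so the count does not show that the medians were stable. The red blood cell list mean ran from -1.81 to 1.34 on early control arrays. Its median went from 0.84 to -0.29 without early control arrays 2 and 3. Same-numbered arrays did not pair at the early stage (correlation of deviations -0.0829, -0.138 and 0.154; late 0.587, 0.391 and 0.135). Numbers across stages as a replicate block gave 0 calls and 967 at unadjusted p under 0.05. With 6 arrays an arm, the number of arrays limits the precision.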

Other observations

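Some features with the largest differences, chosen after their values were seen, read either high or low on single arrays. An unnamed probe, ILMN_2718570, read 9.14, 6.06 and 10.60 on early control, 5.43, 4.45 and 4.43 on early ablation, 4.51, 11.89 and 9.77 on late control and 4.59, 4.58 and 4.39 on late ablation arrays. It was detected on 1 of 6 ablation and 5 of 6 control arrays, with a difference of -4.02 (SE 1.04). Casp9, the initiator caspase of the mitochondrial death pathway, read 8.19, 4.47 and 4.55 on early control, 9.38, 9.39 and 9.29 on early ablation, 9.71, 5.14 and 9.46 on late control and 9.64, 9.40 and 8.84 on late ablation arrays. Early control arrays 2 and 3 and late control array 2 were low and the other arrays high, for a difference of 2.40 (SE 0.85). Serpina3n, a protease inhibitor of the acute phase, differed by 1.79 (SE 0.669) and Lims2, a focal adhesion protein, by 1.70 (SE 0.507), each with a limma adjusted p of 0.859.

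Genes of cell types that a tumour piece may hold besides the tumour varied widely between arrays. Genes of red blood cells were higher in all 4 measured members, at a median of 0.84, the highest of the 33 lists, with 1.27 early and 0.29 late. That median was 0.30 without late ablation array 1 and -0.29 without early control arrays 2 and 3. Hepatocyte genes stood at 0.56, with 0.79 early and -0.03 late, and at 0.16 without early control arrays 2 and 3. Acinar genes had a median of -0.09, with -0.57 early and 0.12 late, and of 0.66 without early ablation array 1. Islet genes had a median of 0.08, with 0.64 early and -0.27 late. Insulin (Ins2) ranged from 6.08 to 12.24 on ablation and from 6.55 to 11.58 on control arrays. Prss3, a trypsinogen of acinar cells, differed by -1.53 (SE 0.66), while Zg16, of secretory granules, differed by 1.56 (SE 0.938). The haemoglobin gene Hba-a1 ranged from 9.74 to 14.83 over the 12 arrays. In the mast cell list, 5 of 7 members were lower, with a shared median of -0.11 (0.06 with median scaling) and stage medians of -0.28 early and -0.28 late. Mcpt1, a mast cell protease, stood at -0.99 (SE 0.691), and at -0.33 without early ablation array 1. The monocyte chemokine Ccl2 differed by 1.11 (SE 0.421), and Csf3r, the receptor of granulocyte colony-stimulating factor, by -0.66 (SE 0.269).

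On the late ablation arrays with anti-CTLA4, with all 15 arrays normalized together, readings of leading genes lay within, above or below the range of the controls. Tcf12 read 6.96, 7.58 and 6.56, against 6.70 to 7.07 on control arrays. Fmod read 4.95, 5.36 and 4.99, all within the range of the 6 control arrays (4.55 to 5.72). Ifit1bl1 read 7.54, 6.56 and 4.48, against 5.41 to 8.33 on control arrays. Batf2 read 7.23, 5.64 and 4.90, against 5.26 to 6.54, and Pglyrp1 13.39, 12.50 and 12.13, against 12.48 to 12.8. Xlr4a read 7.49, 7.48 and 6.06, against 7.33 to 11.09 on control arrays. These levels were not tested, since the anti-CTLA4 arrays lie in a separate table.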
